A study of Mus musculus with 8 samples.

Results

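The comparison set one culture of mouse P19 cells carrying a chimera of MyoD and NeuroD2 against one culture carrying NeuroD2 itself, gene by gene. It used 2 of the 8 libraries of the series, those labelled with the chimera and with NeuroD2 without a multiplicity of infection (MOI, infectious virus particles per cell). The chimera, labelled MD(ND2bHLH), is MyoD with its basic helix-loop-helix (bHLH) domain exchanged for that of NeuroD2. P19 cells come from a mouse teratocarcinoma and stay undifferentiated until a factor or drug directs them to neurons, muscle or other cells. Both cultures received lentivirus with polybrene at 8 µg/ml, fresh medium at 24 h and neuronal medium (Neurobasal with B27) from 48 h until harvest. The remaining libraries, used here only to place the levels, were the chimera at MOI 100, its WC mutant, its WCS mutant with and without MOI 100, MyoD and GFP, and all had the same medium schedule. The labels give no MOI for the chimera and NeuroD2 libraries, no harvest time and no genotype beyond the cell line.

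Each culture gave 1 poly(A)-selected library, so no difference below has a replicate check and none was tested. Construct, virus dose and culture cannot be told apart in a pair of single libraries. The chimera library held 26410500 gene counts and the NeuroD2 library 27604056. Levels are CPM, read counts scaled to a common library size after TMM normalization. Each ratio carries an exact 95% interval that covers counting error only and holds no variation between cultures or libraries. PCR reads are not independent molecules, so the interval can be too narrow even for counting error. A count of 0 stands for up to 3 counts, or 0.113 CPM in the chimera library and 0.105 CPM in the NeuroD2 library. Of the 37558 genes in the table, 15547 reached 1 CPM in at least 1 of the 8 libraries and are called measured. In bulk RNA, fewer cells of a kind and less RNA per cell cannot be told apart.

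MyoD and NeuroD2 are bHLH transcription factors. Such factors pair with widely expressed E-proteins and bind E-boxes, short DNA sites of the form CANNTG in which N is any base. MyoD starts the skeletal muscle programme, through targets such as myogenin, and NeuroD2 drives the differentiation of neurons. The bHLH domain makes the contact with DNA and with the E-protein partner, while the parts of MyoD outside it include its activation domain and a stretch that meets Pbx and Meis factors on chromatin. The series compares these factors to ask how the choice of E-box bears on lineage.

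Between the chimera and NeuroD2 libraries, skeletal muscle genes stood at the high end of the ratios and neuronal genes at the low end. Of the measured genes, 101, or 0.650%, were at least 4-fold higher in the chimera library, and 257, or 1.65%, were at least 4-fold lower, counting only genes with 5 CPM or more in the higher library. Another 13843 genes, 89.0%, lay within 2-fold. The median log2 ratio of all measured genes was 0.01. Of the 101 higher genes, 41 were in the skeletal muscle lists and 1 in the neuronal lists. Of the 257 lower genes, 65 were in the neuronal lists and 2 in the muscle lists. Of all 15547 measured genes, 124 were in the muscle lists and 248 in the neuronal lists. The lists were chosen with earlier results of these data known, so these counts describe the lists and are no independent support.

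**Figure D1:**
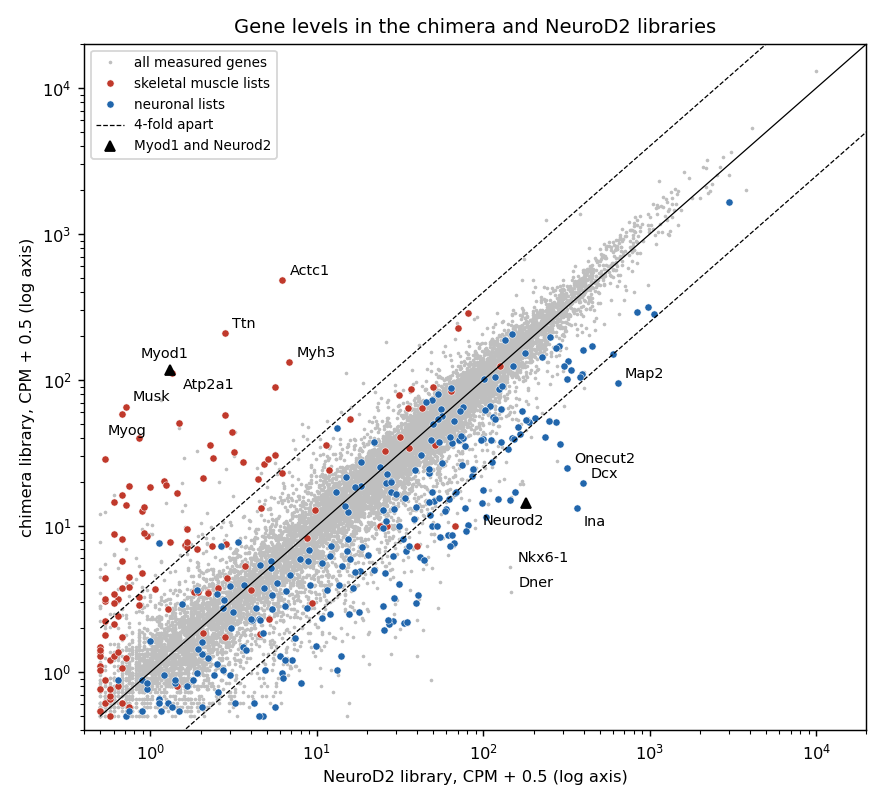
Level of each measured gene in the chimera library (vertical axis) against the NeuroD2 library (horizontal axis), as CPM + 0.5 on log axes, 1 point a gene and 1 library an axis. Red points are members of the 3 skeletal muscle lists, blue points are members of the 9 neuronal lists, triangles are Myod1 and Neurod2, and the dashed lines mark 4-fold. Most genes follow the solid line of equal level, with muscle genes such as Myog and Ttn far above it and neuronal genes such as Ina and Onecut2 far below.

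The transcripts of the delivered factors matched the labels. Myod1, which the chimera construct can feed with reads from its MyoD portion, stood at 116 CPM in the chimera library, against 0.804 CPM in the NeuroD2 library, a ratio of 144-fold higher (95.7 to 227). Neurod2 stood at 13.8 CPM in the chimera library, against 180 CPM in the NeuroD2 library, 13.0-fold lower (11.7 to 14.5). The chimera construct can feed this count only from its bHLH portion, so the ratio sets a part against the whole and does not measure delivery. The chimera at MOI 100 had 555 CPM of Myod1 and 73.3 CPM of Neurod2, the MyoD library 296 CPM and no count, and the GFP library 0.681 and 2.50 CPM. Reads of the construct and of the endogenous gene are summed in each count, so these levels check the labels and do not give the amount of either protein.

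Among the regulators of myogenesis, 8 of 27 measured members, 29.6%, were at least 4-fold higher in the chimera library and 2, or 7.41%, were lower. The shares of all measured genes were 0.650% and 1.65%. Myogenin (Myog), the bHLH factor that MyoD switches on to start terminal muscle differentiation, had 1545 counts in the chimera library and 5 in the NeuroD2 library. That is 58.2 CPM (55.3 to 61.2) in the chimera library, against 0.175 CPM (0.0567 to 0.408) in the NeuroD2 library, or 333-fold higher (142 to 1028). The other libraries fell into a high and a low set for Myog: 197 CPM with the chimera at MOI 100 and 95.1 CPM with MyoD, but 0.0642 CPM with the WC mutant, no count with the WCS mutant, 0.157 CPM with WCS at MOI 100 and 0.0486 CPM with GFP. Musk, the receptor kinase that organises the neuromuscular junction, was at 65.0 CPM in the chimera library and 0.210 CPM in the NeuroD2 library, 310-fold higher (142 to 846).

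The promoters of 3 muscle genes at the high end are printed here so that the E-boxes in them can be seen beside the ratios. The sequences are the 250 bases before the start of each gene from RefSeq on build GRCm38.p6, written 5′ to 3′ along the gene's own strand. The counts themselves were made on the older build mm9, and these coordinates were not used with them. Capitals mark every CANNTG, a pattern that reads as an E-box on both strands.
Myog promoter, chr1:134289754-134290003, plus strand: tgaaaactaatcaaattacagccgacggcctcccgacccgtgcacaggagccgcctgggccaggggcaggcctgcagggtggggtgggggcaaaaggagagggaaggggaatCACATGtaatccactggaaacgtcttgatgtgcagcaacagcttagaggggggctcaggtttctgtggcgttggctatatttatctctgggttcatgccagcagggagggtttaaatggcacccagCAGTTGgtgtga
Musk promoter, chr4:58285712-58285961, plus strand: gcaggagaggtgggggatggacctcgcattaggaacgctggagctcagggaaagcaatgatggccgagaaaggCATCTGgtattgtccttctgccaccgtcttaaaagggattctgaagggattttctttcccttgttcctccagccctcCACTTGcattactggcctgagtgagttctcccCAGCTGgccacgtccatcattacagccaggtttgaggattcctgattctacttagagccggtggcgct
Ttn promoter, chr2:76982548-76982797, minus strand: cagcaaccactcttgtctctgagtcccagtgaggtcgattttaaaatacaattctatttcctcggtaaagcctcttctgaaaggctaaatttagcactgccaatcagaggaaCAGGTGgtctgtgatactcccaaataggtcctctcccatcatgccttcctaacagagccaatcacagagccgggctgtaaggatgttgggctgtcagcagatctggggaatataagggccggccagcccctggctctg
The Myog window holds CACATG 138 bases and CAGTTG 12 bases before the start. The Musk window holds CATCTG at 177, CACTTG at 100 and CAGCTG at 68 bases before the start, and the Ttn window holds CAGGTG at 138. A CANNTG is in 66.0% of the 27025 RefSeq promoters of this length, CAGCTG in 12.8%, CAGATG on either strand in 14.5% and CAGGTG on either strand in 17.1%, so the presence of a match is common and marks no site of binding. Promoters were matched for only 76.2% of the higher genes and 71.2% of the lower genes, under the 80% needed, so a comparison of E-box shares between those sets is void and was not made.

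Other muscle regulators at the high end act at different steps. Mymk, the membrane protein that fuses myoblasts, had 19.9 CPM in the chimera library and 0.699 CPM in the NeuroD2 library, and Cdh15, the cadherin of muscle precursors, had 88.4 against 5.14 CPM. Pitx3, a homeodomain factor, was 79.4-fold higher (26.8 to 388) on 221 counts in the chimera library and 3 in the NeuroD2 library, and the receptor Fgfr4 5.17-fold higher (4.22 to 6.39). Mef2c, the MADS-box partner of the myogenic factors, was at 26 CPM in the chimera library, against 4.30 CPM in the NeuroD2 library. The sister factors Myf5 and Myf6 were not among the genes that differed, with 1 count each in the chimera library and 0 in the NeuroD2 library. Among the lower members was Met, the receptor used by migrating muscle precursors, at 6.74 CPM in the chimera library and 39.3 CPM in the NeuroD2 library. Met is not specific to muscle and was at 11.7 CPM in the GFP library.

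The contractile apparatus was the list with the highest median ratio. Of 60 measured sarcomere and myofibril genes, 27, or 45%, were at least 4-fold higher in the chimera library, beside 0.650% of all measured genes. None was lower, and the median log2 ratio was 2.24. Cardiac actin (Actc1), which embryonic skeletal muscle also makes, was at 481 CPM in the chimera library and 5.69 CPM in the NeuroD2 library, 84.4-fold higher (72.4 to 99.2). It was at 5163 CPM in the MyoD library and at 42.3 CPM in the GFP library, so the NeuroD2 level was below that of GFP. Titin (Ttn), the molecular spring of the sarcomere whose promoter is printed above, was at 209 CPM in the chimera library and 2.31 CPM in the NeuroD2 library, 90.7-fold higher (71.2 to 117). The embryonic myosin heavy chain Myh3 was at 132 CPM in the chimera library and 6.29 CPM in the NeuroD2 library, 21.0-fold higher (18.1 to 24.5), beside 3060.4 CPM with MyoD and 0.511 CPM with GFP.

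Fast and slow fibre genes and the assembly factors shared this direction. Myl1, a fast light chain, had 756 counts in the chimera library and 1 in the NeuroD2 library, a ratio of 815 whose interval runs from 146 to 32242. Slow troponin I (Tnni1) was at 15.8 CPM in the chimera library, against 0.175 CPM in the NeuroD2 library. Fast troponin T (Tnnt3) was 30.8-fold higher (17.4 to 60.2) and skeletal actin (Acta1) 31.9-fold higher (17.6 to 64.5). Klhl41, which protects thin filaments, was 114-fold higher (61.7 to 238), the methyltransferase Smyd1, a myosin assembly factor, 51.1-fold (35.2 to 77.3), and Trim55, a titin-binding ubiquitin ligase, 134-fold (45.5 to 653). Synpo2l, a Z-disc protein outside the lists, was at 71.9 CPM in the chimera library, against 0.664 CPM in the NeuroD2 library. The tropomyosin gene Tpm1, which many cell types express, was at 286 CPM in the chimera library, 80.5 CPM in the NeuroD2 library and 625 CPM in the GFP library. Myosin heavy chains and muscle actins are near-identical in stretches, and no source used here says how shared reads were counted, so the split between paralogs is uncertain.

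Genes of excitation, calcium handling and the synapse with nerve were mixed. Of 37 measured members, 6, or 16.2%, were past 4-fold on the higher side, beside 0.650% of all measured genes. None was past it on the lower side, and the median log2 ratio was 1.09. Atp2a1, the calcium pump of fast muscle, was at 111 CPM in the chimera library and 0.838 CPM in the NeuroD2 library, 133-fold higher (89.0 to 207), and Ryr1, the calcium release channel, was at 57.5 and 2.31 CPM, 24.9-fold higher (19.5 to 32.4). Chrng, the fetal subunit of the muscle acetylcholine receptor, was 17.2-fold higher (11.7 to 26.4), and Jsrp1, a protein of the calcium release junction, 13.2-fold (9.75 to 18.3). Muscle creatine kinase (Ckm), an enzyme of energy supply, had 8 counts in the chimera library and 4 in the NeuroD2 library, and was at 5.26 CPM with MyoD. Hfe2, which encodes hemojuvelin and is made in muscle and liver, had 194 counts in the chimera library and none in the NeuroD2 library, at least 69.7-fold higher against a floor of 3 counts per library.

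The 3 muscle lists together had 124 measured members of 137. In the chimera library 41 of them, 33.1%, were at least 4-fold higher than in the NeuroD2 library, beside 0.650% of all measured genes, and 36 were within 2-fold. Because the lists were chosen with earlier results of these data known, the gap between these shares describes the lists and tests nothing. Their median log2 ratio was 1.72, with quartiles of 0.58 and 3.05. Summed over the members, the lists held 3410 CPM in the chimera library and 1012 CPM in the NeuroD2 library. The same sum was 26264 CPM in the MyoD library, 5256 CPM in the chimera library at MOI 100 and 1617 CPM in the GFP library, which places the chimera library above NeuroD2 and GFP and well below MyoD. Over the 101 higher genes, the median level was 19.1 CPM in the chimera library, 102 CPM with MyoD, 1.56 CPM with GFP and 1.12 CPM with NeuroD2. These genes were picked by the ratio of the chimera and NeuroD2 libraries, so the gap between their medians there follows from the rule.

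**Figure D2:**
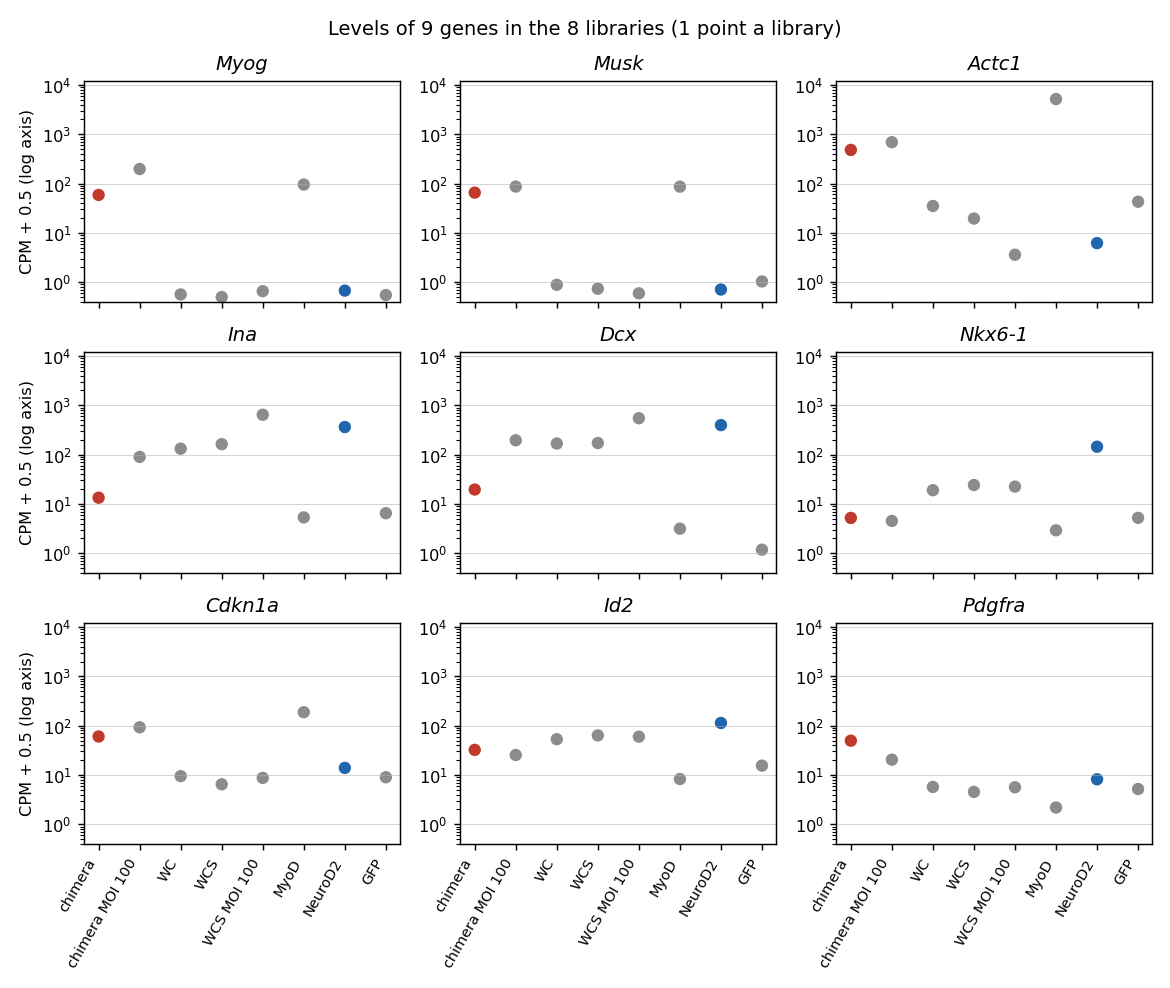
Levels of 9 genes in all 8 libraries, as CPM + 0.5 on a log axis, 1 point a library, with the chimera library in red, the NeuroD2 library in blue and the rest in grey. Myog and Musk are high in both chimera libraries and with MyoD and near the floor elsewhere, and Ina and Dcx are lowest in the chimera library without an MOI label and in the MyoD and GFP libraries.

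Neuronal genes made up the other end of the comparison. Alpha-internexin (Ina), a neurofilament protein of young neurons, was at 12.9 CPM (11.6 to 14.3) in the chimera library, against 362 CPM (355 to 369) in the NeuroD2 library, 28.1-fold lower (25.2 to 31.4). It was at 89.4 CPM in the chimera library at MOI 100, 132 CPM with WC, 163 CPM with WCS, 644 CPM with WCS at MOI 100, 4.84 CPM with MyoD and 5.98 CPM with GFP. The chimera level without an MOI label was thus the lowest of the 5 chimera and mutant libraries, and above MyoD and GFP. Doublecortin (Dcx), the microtubule protein of migrating neurons, was at 19.1 CPM in the chimera library and 397 CPM in the NeuroD2 library, 20.8-fold lower (19 to 22.8), with 2.65 CPM for MyoD and 0.681 CPM for GFP.

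The promoters of Ina and of Nkx6-1 and Dner, whose intervals also lay far from equality, are shown for comparison with those of the muscle genes, in the same window and notation.
Ina promoter, chr19:47014431-47014680, plus strand: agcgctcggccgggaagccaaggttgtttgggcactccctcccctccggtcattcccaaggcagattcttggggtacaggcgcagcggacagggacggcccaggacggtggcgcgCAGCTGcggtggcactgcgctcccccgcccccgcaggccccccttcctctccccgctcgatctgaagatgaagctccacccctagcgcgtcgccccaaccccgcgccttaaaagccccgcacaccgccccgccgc
Nkx6-1 promoter, chr5:101664712-101664961, minus strand: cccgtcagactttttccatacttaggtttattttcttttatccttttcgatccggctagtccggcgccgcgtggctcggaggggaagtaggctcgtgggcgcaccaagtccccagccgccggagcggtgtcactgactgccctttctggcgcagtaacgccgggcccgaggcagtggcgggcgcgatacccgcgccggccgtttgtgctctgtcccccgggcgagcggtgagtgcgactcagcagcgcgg
Dner promoter, chr1:84696222-84696471, minus strand: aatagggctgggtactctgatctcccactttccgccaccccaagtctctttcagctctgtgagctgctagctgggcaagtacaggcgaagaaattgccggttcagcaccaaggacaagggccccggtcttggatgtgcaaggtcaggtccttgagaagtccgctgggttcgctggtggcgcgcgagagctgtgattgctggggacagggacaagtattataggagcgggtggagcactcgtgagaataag
The Ina window holds CAGCTG 135 bases before the start. The Nkx6-1 and Dner windows hold no CANNTG, which says only that these letters are not in the 250 bases printed.

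Each class of neuronal transcription factors had members past 4-fold on the lower side. Of 15 measured neuronal bHLH factors, 5, or 33.3%, were past 4-fold on the lower side, beside 1.65% of all measured genes. None was past it on the higher side, and the median log2 ratio was -1.33. Olig2, which specifies motor neuron and oligodendrocyte precursors, was at 9.49 CPM in the chimera library and 48.9 CPM in the NeuroD2 library, and Atoh7, the factor of retinal ganglion cells, at 0.339 and 7.55 CPM. Nhlh2 was 5.89-fold lower (4.83 to 7.25) and Neurod4 4.24-fold lower (3.64 to 4.96). Neurod1, a close relative of NeuroD2, differed less, at 38.6 CPM in the chimera library, 111 CPM in the NeuroD2 library and 0.608 CPM in the GFP library.

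Of 20 measured zinc-finger and Ebf factors of neurons, 7, or 35%, were past 4-fold on the lower side, beside 1.65% of all measured genes. Myt1, a repressor of non-neuronal genes, was at 1.66 CPM in the chimera library, against 33.0 CPM in the NeuroD2 library, 19.9-fold lower (14.7 to 27.6). The Snail-related repressors Scrt1 and Scrt2, which act in newborn neurons, were 16.3-fold (12.1 to 22.5) and 17.2-fold (12.4 to 24.5) lower. Ebf1, which acts in migrating and differentiating neurons, was at 14.9 CPM in the chimera library, 122 CPM in the NeuroD2 library and 1.65 CPM in the GFP library.

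Of 29 measured homeodomain and related factors of neuron subtypes, 10, or 34.5%, were at least 4-fold lower and 1, or 3.45%, was higher. The shares of all measured genes were 1.65% and 0.650%. Onecut2, a cut-homeodomain factor of early-born neurons, was at 24.3 CPM in the chimera library, against 317 CPM in the NeuroD2 library, 13.0-fold lower (12.0 to 14.1), and its relatives Onecut1 and Onecut3 were 17.0-fold (11 to 27.9) and 67.2-fold (18.3 to 560) lower. The spinal interneuron factors Lhx1 and Lhx5 were 16.4-fold (12.1 to 22.9) and 15.7-fold (12.2 to 20.4) lower, and the motor neuron factor Isl1 was at 0.716 CPM in the chimera library and 6.53 CPM in the NeuroD2 library. Barhl1, a factor of dorsal spinal and hindbrain neurons, was the single neuronal list member past 4-fold in the other direction, at 7.20 CPM in the chimera library and 0.629 CPM in the NeuroD2 library, 11.4-fold higher (7.05 to 19.7). With a pseudocount of 2 CPM its log2 ratio was 1.81 and no neuronal list member was past 4-fold higher. Barhl1 was at 11.6 CPM with the chimera at MOI 100, 18.0 to 34.1 CPM with the 3 mutant libraries, 0.154 CPM with MyoD and 0.0486 CPM with GFP, so the NeuroD2 level was below that of each chimera and mutant library. Outside the lists, Tlx1, a homeodomain factor of spinal dorsal horn neurons, had no count in the chimera library and 421 in the NeuroD2 library, at least 130-fold lower against the floor of 3 counts. The short-stature homeobox gene Shox2 was at 1.77 CPM in the chimera library and 39.5 CPM in the NeuroD2 library.

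The neuronal cytoskeleton was lower in nearly all members but by unequal amounts. Of 37 measured members, 34 had a ratio below 1, and the median log2 ratio was -1.78. At least 4-fold lower were 10, or 27.0%, beside 1.65% of all measured genes. Tau (Mapt), which stabilises axonal microtubules, was at 2.86 CPM in the chimera library and 40.1 CPM in the NeuroD2 library, 14.0-fold lower (11.1 to 17.9). The axonal motor Kif5a was 9.82-fold lower (8.85 to 10.9), Map2, the microtubule protein of dendrites, 6.76-fold (6.49 to 7.05) and Nefl, the light neurofilament, 4.13-fold (3.81 to 4.49). The neuronal tubulin Tubb3 was at 284 CPM in the chimera library, 1054 CPM in the NeuroD2 library and 110 CPM in the GFP library, 3.71-fold lower (3.62 to 3.80) and so within the 4-fold rule. Stmn2 and Gap43, growth cone proteins, were likewise 3.59-fold (3.44 to 3.74) and 3.74-fold (3.53 to 3.97) lower.

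RNA-binding proteins of neurons, which direct alternative splicing and transcript stability, followed the same direction, with all 15 measured members below a ratio of 1. Of these, 4, or 26.7%, were at least 4-fold lower, beside 1.65% of all measured genes. Celf6 was 8.40-fold lower (6.35 to 11.3) and Celf3 6.02-fold (5.36 to 6.76). The Hu protein genes that are often used to mark neurons differed less, with Elavl3 at 135 CPM in the chimera library and 320 CPM in the NeuroD2 library, and Elavl4 at 38.5 and 96.5 CPM.

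Genes of synaptic vesicles and dense-core granules had 11 of 31 measured members at least 4-fold lower, 35.5%, beside 1.65% of all measured genes. Pcsk2, the protease that matures neuropeptides, was at 1.77 CPM in the chimera library, against 26.1 CPM in the NeuroD2 library, 14.8-fold lower (11 to 20.3). Chromogranin B (Chgb), a core protein of secretory granules, was at 36.2 CPM in the chimera library and 290 CPM in the NeuroD2 library, and the calcium sensor Syt1 at 3.50 and 30.7 CPM. Snap25, a SNARE protein of the release machinery, was 4.12-fold lower (3.71 to 4.58). Of 15 measured genes of transmitter identity, 1, or 6.67%, was at least 4-fold lower, beside 1.65% of all measured genes. Another 10 were within 2-fold, and the median log2 ratio was -0.30. The member past 4-fold was Slc17a6, the vesicular glutamate transporter. It was at 8.14 CPM in the chimera library, 60.6 CPM in the NeuroD2 library and 0.122 CPM in the GFP library. The vesicular transporter of inhibitory neurons, Slc32a1, was at 0.264 and 0.454 CPM in the chimera and NeuroD2 libraries, near the floor on both sides.

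Of 39 measured channels and receptors, 9, or 23.1%, were at least 4-fold lower, beside 1.65% of all measured genes, and none was higher. The potassium channel gene Kcnd3 was at 16.5 CPM in the chimera library, against 155 CPM in the NeuroD2 library, 9.40-fold lower (8.52 to 10.4), Kcnip1, a regulatory subunit of A-type potassium channels, 24.0-fold lower (14.1 to 44.4), and the sodium channel Scn3a 6.84-fold lower (5.91 to 7.93). Of 47 measured guidance and adhesion genes, 8, or 17.0%, were at least 4-fold lower, beside the same 1.65%, and 28 were within 2-fold. L1cam, an adhesion molecule of growing axons, was at 11 CPM in the chimera library and 102 CPM in the NeuroD2 library. Reelin (Reln), which positions migrating neurons, was 9.12-fold lower (7.82 to 10.7), and Ret, the receptor for GDNF family ligands, 7.06-fold (6.33 to 7.90). The list also had members on the other side: the repellent Sema3a was at 46.5 CPM in the chimera library and 12.7 CPM in the NeuroD2 library, 3.67-fold higher (3.26 to 4.14), while Robo2, a receptor for Slit, was at 60.9 and 71.4 CPM.

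The 9 neuronal lists together had 248 measured members of 281. In the chimera library 65 of them, 26.2%, were at least 4-fold lower than in the NeuroD2 library, beside 1.65% of all measured genes, and 1 was higher. Another 100 were within 2-fold, a share of 40.3% beside 89.0% of all measured genes. The same limit on the choice of lists holds here. Their median log2 ratio was -1.29, with quartiles of -2.15 and -0.50. Summed over the members, the lists held 8942 CPM in the chimera library, 22199 CPM in the NeuroD2 library and 6356 CPM in the GFP library. Over the 257 lower genes, the median level was 3.24 CPM in the chimera library, against 26.6 CPM in the NeuroD2 library, with 1.36 CPM for GFP and 1.19 CPM for MyoD. Here too the gap between the chimera and NeuroD2 medians follows from the rule that picked the genes.

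**Figure D3:**
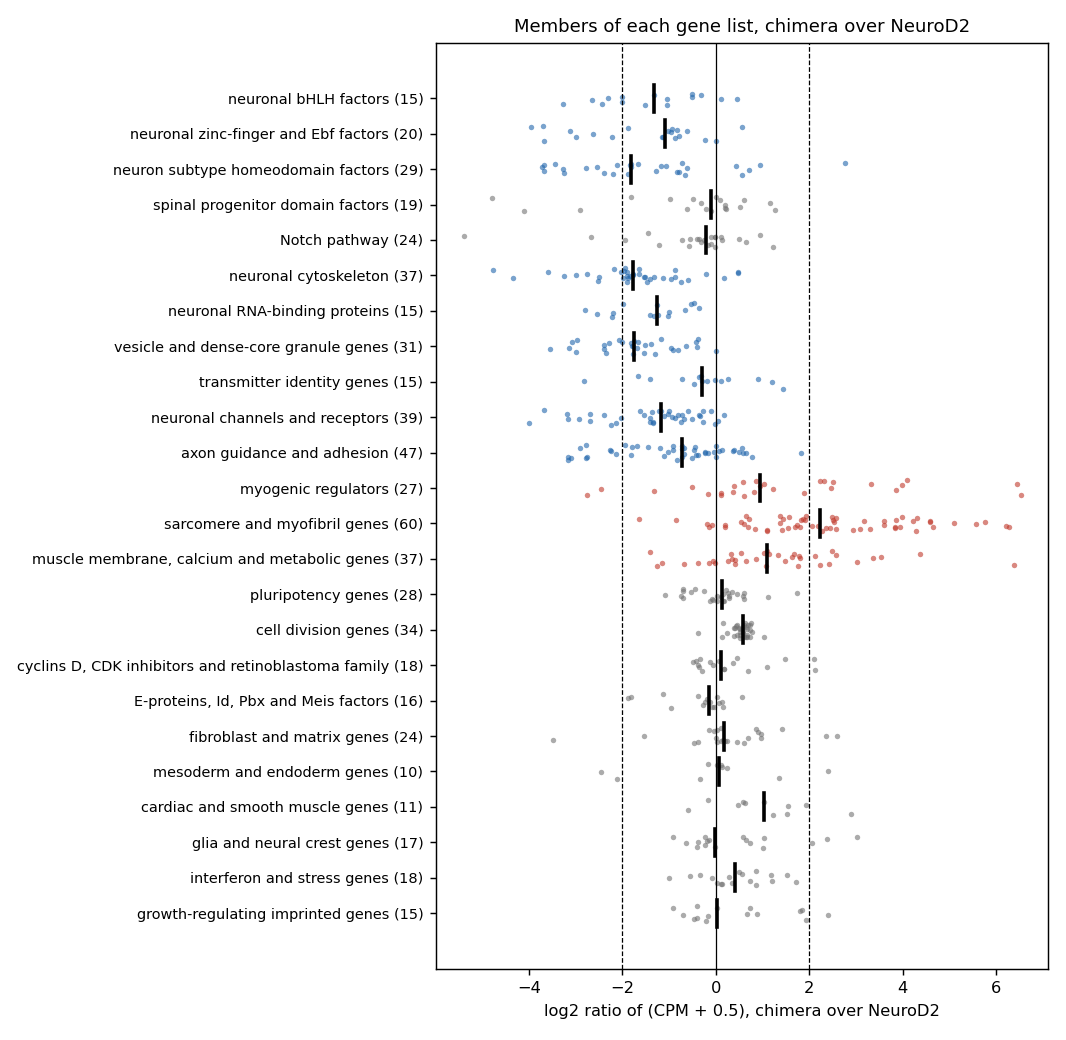
Log2 ratio of CPM + 0.5, chimera over NeuroD2, for each measured member of 24 gene lists, 1 point a gene, with the number of measured members in brackets and the list median as a black bar. The dashed lines mark 4-fold, and the sarcomere list has the highest median at 2.24 while the subtype homeodomain list has the lowest at -1.82.

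Among progenitor and Notch genes a few members were past the rule, all on the lower side. They were 3 of 19 measured spinal progenitor factors, 15.8%, and 2 of 24 measured Notch pathway genes, 8.33%. The share of all measured genes was 1.65%. Nkx6-1, the homeodomain factor that patterns ventral spinal progenitors and also acts in motor neurons, was at 4.71 CPM (3.92 to 5.61) in the chimera library, against 144 CPM (140 to 149) in the NeuroD2 library, 30.6-fold lower (25.6 to 36.9). The chimera library at MOI 100 had 4.03 CPM, the 3 mutant libraries 18.5 to 23.7 CPM, MyoD 2.42 CPM and GFP 4.72 CPM, so both chimera libraries were at the GFP level and NeuroD2 was above every other library. Foxa2, the floor plate factor that endoderm also expresses, was at 0.226 CPM in the chimera library and 12.0 CPM in the NeuroD2 library, 53.2-fold lower (24.2 to 146), and Pax2, of spinal interneurons, was 8.94-fold lower (6.81 to 11.9). The remaining 16 of 19 measured members of that list were not past the rule, among them Pax6 at 61.9 and 77.5 CPM. Nestin (Nes), the filament of neural progenitors, which immature muscle also makes, was 2.41-fold higher (2.31 to 2.51), at 289 CPM in the chimera library, 120 CPM in the NeuroD2 library and 474 CPM with MyoD.

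Dner, a neuron-specific protein related to the Notch ligands, had the largest difference among 24 measured Notch pathway genes, with 3.01 CPM in the chimera library and 147 CPM in the NeuroD2 library, 48.7-fold lower (39.1 to 61.6). The ligand Dll4 was 6.71-fold lower (5.74 to 7.89), whereas the ligand Dll1 was at 251 CPM in the chimera library and 131 CPM in the NeuroD2 library, 1.92-fold higher (1.85 to 2). The receptor Notch1 was at 267 and 270 CPM in the chimera and NeuroD2 libraries. Its target Hes5 was at 31.3 CPM in the chimera library and 46.1 CPM in the NeuroD2 library, and at 0.365 CPM with GFP.

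The E-proteins, the partners of bHLH factors, were close to equal. The E-protein genes Tcf3, Tcf4 and Tcf12 lay within 1.14-fold between the chimera and NeuroD2 libraries, with Tcf3 at 229 and 234 CPM. None of the 16 measured E-protein, Id, Pbx and Meis genes was past the rule, beside 2.30% of all measured genes in either direction. Within 2-fold lay 13, or 81.25%, beside 89.0% of all measured genes. The Id genes encode inhibitors that hold E-proteins away from DNA. Of these, Id1 was 3.80-fold lower (3.37 to 4.29) and Id2 3.55-fold lower (3.29 to 3.83) in the chimera library. Id2 was at 31.8 CPM in the chimera library, 113 CPM in the NeuroD2 library and 15 CPM in the GFP library.

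Cell division genes were higher as a list in the chimera library. Pluripotency genes were about as close to equality as all measured genes, by the share within 2-fold. Of 34 measured cell division genes, 33 had a ratio above 1, beside 7870 of all 15547 measured genes. None was past 4-fold, and the median log2 ratio was 0.58. The list summed to 9748 CPM in the chimera library, 6555 CPM in the NeuroD2 library and 10131 CPM in the GFP library. Of 28 measured pluripotency genes, 17 had a ratio above 1 and 11 below 1, and the median log2 ratio was 0.13. Within 2-fold lay 25, or 89.3%, beside 89.0% of all measured genes. None was past 4-fold, beside 2.30% of all measured genes in either direction. The pluripotency list summed to 1770.1 CPM in the chimera library, 1573 CPM in the NeuroD2 library and 3762 CPM in the GFP library. Pou5f1, the factor that holds embryonal carcinoma cells undifferentiated, was at 167 CPM in the chimera library and 109 CPM in the NeuroD2 library, 1.52-fold higher (1.46 to 1.60), against 1227 CPM in the GFP library. The members outside 2-fold lay on both sides: E-cadherin (Cdh1) was 3.45-fold higher (3.01 to 3.95) and Nanog 2.19-fold higher (1.99 to 2.41), while the Krüppel-like factor Klf4 was 2.30-fold lower (1.79 to 2.97). The part of dividing or undifferentiated cells in the neuronal and muscle differences was not tested.

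Of 18 measured cyclin D, CDK inhibitor and retinoblastoma family genes, 2 were past 4-fold, Cdkn1a and the stress gene Gadd45b, both higher in the chimera library. They made up 11.1% of the measured list, beside 0.650% of all measured genes. The CDK inhibitor Cdkn1a was at 59.9 CPM in the chimera library and 13.5 CPM in the NeuroD2 library, 4.45-fold higher (3.98 to 4.99), with 187 CPM for MyoD and 8.51 CPM for GFP. Cyclin D3 (Ccnd3) was 2.82-fold higher (2.73 to 2.92), under the rule. The growth factor gene Igf2 was at 1250.1 CPM in the chimera library and 237 CPM in the NeuroD2 library, 5.28-fold higher (5.15 to 5.42), with 3539.9 CPM for MyoD. Its imprinted neighbour H19 was 3.84-fold higher (3.72 to 3.96).

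Of the genes of other lineages, some of endoderm and glia were at or near the floor on both sides. Fibroblast and matrix genes were not, with a median level of 21.8 CPM in the chimera library and 13.4 CPM in the NeuroD2 library. The endoderm markers Sox17 and Afp had 0 and 1 counts in the chimera library and 2 and 0 in the NeuroD2 library, and the glial markers Gfap and Aqp4 were under 1 CPM in both. Of 24 measured fibroblast and matrix genes, 2, or 8.33%, were past 4-fold on the higher side and 1, or 4.17%, on the lower. The shares of all measured genes were 0.650% and 1.65%. Pdgfra, a receptor of mesenchymal and oligodendrocyte precursors, was at 49.1 CPM in the chimera library and 7.69 CPM in the NeuroD2 library, 6.39-fold higher (5.54 to 7.41), and was higher in this library than in any other, with 20.0 CPM in the chimera library at MOI 100, 1.69 CPM with MyoD and 4.69 CPM with GFP. Periostin (Postn), a matrix protein, was 15.1-fold lower (10.7 to 21.9), while the fibroblast collagens Col1a1 and Col3a1 were at 3.99 and 2.30 CPM in the chimera library, against 1.96 and 3.35 CPM in the NeuroD2 library. Smooth muscle actin (Acta2), which early skeletal muscle also makes, was at 112 CPM in the chimera library and 14.5 CPM in the NeuroD2 library. That is 7.73-fold higher (6.97 to 8.58). Acta2 was at 888 CPM with MyoD and 102 CPM with GFP, so the chimera level was near that of GFP and the NeuroD2 level below it. Erbb3, a neuregulin receptor of muscle and Schwann cells, was 11.6-fold higher (7.98 to 17.5), with 134 CPM for MyoD.

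A few genes far from equality belong to neither programme by their known roles. Evi2, named after a retroviral integration site, had 306 counts in the chimera library and none in the NeuroD2 library, at least 110-fold higher against the floor, and its neighbour Evi2a had 319 counts and 1. Evi2 was at 11.5 CPM in the chimera library and 23.3 CPM in the chimera library at MOI 100, but at most 0.192 CPM in the other libraries, MyoD included. No source used here says whether strand was used in counting, which leaves reads of Evi2, Evi2a and any transcript over them impossible to tell apart. H2-Aa, an MHC class II chain of antigen-presenting cells, was at 15.8 CPM in the chimera library and 0.105 CPM in the NeuroD2 library, 151-fold higher (51.3 to 735). The other 6 libraries held 0.0940 to 3.92 CPM of H2-Aa, with 1.70 CPM in the chimera library at MOI 100. The high level was thus in 1 library only, that of the chimera without an MOI label. At the low end, aggrecan (Acan), the proteoglycan of cartilage and perineuronal nets, was at 0.640 CPM in the chimera library, against 20.1 CPM in the NeuroD2 library, and every library but NeuroD2 was at 4.21 CPM or less.

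The chimera library at MOI 100 can be set beside the same NeuroD2 library, and since both comparisons share that library only each one's own values are given. At MOI 100, 182 genes, 1.17%, were at least 4-fold higher than in the NeuroD2 library and 85 genes, 0.547%, were lower. Of the neuronal list members, 12 were at least 4-fold lower at MOI 100 and 65 without an MOI label, with median log2 ratios of -0.42 and -1.29. Of the muscle list members, 50 were at least 4-fold higher at MOI 100 and 41 without an MOI label, with medians of 1.98 and 1.72. Pcsk2 was at 22.2 CPM in the chimera library at MOI 100 and 1.77 CPM without an MOI label, against 26.1 CPM in the NeuroD2 library, and Tubb3 was at 1058, 284 and 1054 CPM in that order of libraries. Neurod1 was at 150 CPM in the chimera library at MOI 100, 38.6 CPM without an MOI label and 111 CPM in the NeuroD2 library. Nkx6-1 and Foxa2 were low at MOI 100 too, at 4.03 and 0.312 CPM, as did Lhx5 at 3.78 CPM. Within the muscle genes, Myog was at 197 CPM at MOI 100 and 58.2 CPM without an MOI label, whereas Klhl41 was at 38.2 and 39.8 CPM and Acta1 at 11.9 and 12.2 CPM.

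**Figure D4:**
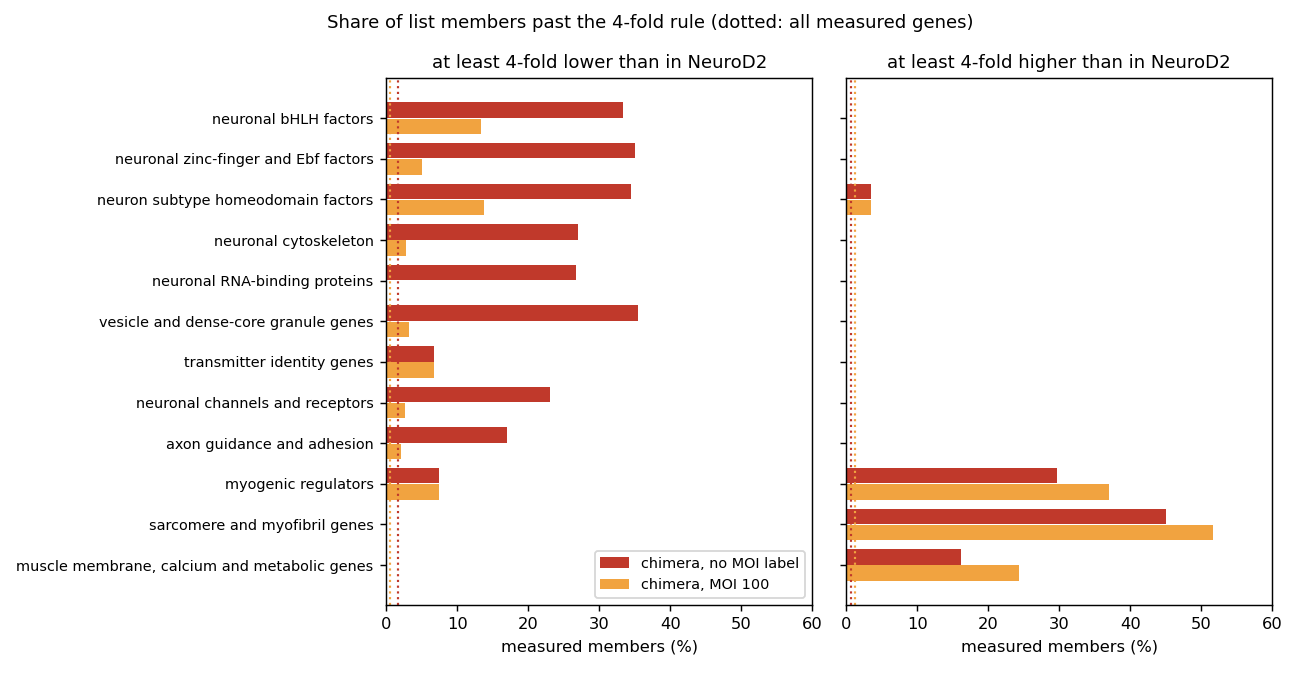
Percentage of measured members of the neuronal and muscle lists that were at least 4-fold lower (left) or higher (right) than in the NeuroD2 library, for the chimera library without an MOI label (red) and at MOI 100 (orange), 1 library a bar. The dotted lines give the same share over all measured genes, and on the left the red bar is longer than the orange one in each neuronal list except transmitter identity genes, where they are equal.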

How the data were processed

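Gene counts as deposited by the authors were used, 1 library a group. Per the submitters' processing notes the tools were CASAVA 1.8.2 and TopHat2 2.0.8 with build mm9, and no counting tool, annotation or strand option is stated (not given in the sources used here). Symbols were matched by Ensembl identifier for 32850 of 37558 genes, or 87.5%. Counts were scaled to CPM with TMM factors over 8 libraries (edgeR 4.0.16, R 4.3.3), 1.005 for the chimera and 1.037 for NeuroD2. Genes counted as higher or lower had values of CPM + 0.5 that differed by 4-fold or more, and 5 CPM in the higher library. Ratios carry exact conditional binomial (Clopper-Pearson) 95% intervals (scipy 1.17.1), intervals on single levels are exact Poisson intervals, and a fold against 0 uses a floor of 3 counts per library. With 1 library a group no test was made.

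The genes named were Myod1, Neurod2, Ina, Nkx6-1 and Myog, the 15 genes in each direction with the interval bound farthest from no change, and in each of 25 lists the 4 members with the largest ratio and any past the rule, skipping unnamed gene models. Other genes named were chosen after their values were seen. The members and lists were chosen with earlier results of these data known. The steps were tested on simulated counts. Alternatives were DESeq2 1.42.0 size factors, total counts, TMM over the 2 libraries, a pseudocount of 2 CPM, no minimum level, 8-fold and 2-fold thresholds, and genes measured in the 2 libraries only. Promoter sequences came from RefSeq (GRCm38.p6) and were matched by symbol. A few genes that this rule names are not reported here.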

Additional observations from a re-analysis of the deposited data

How the results depend on the processing

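Of the values recomputed, 2 medians near 0 changed sign, both under total counts: that of all measured genes was -0.04, against 0.01, and that of the imprinted genes -0.02, against 0.03. No other value changed sign under the alternatives run. Under DESeq2 size factors, total counts, TMM over the 2 libraries and no minimum level, the numbers of higher and lower genes and of list members past 4-fold stayed within 1.5 times the values reported. At 8-fold, 57 genes were higher and 73 lower, and at 2-fold 343 and 851, against 101 and 257. Neuronal members lower numbered 24 at 8-fold and 124 at 2-fold, against 65. A pseudocount of 2 CPM left 158 lower genes, and Barhl1, the neuronal member past 4-fold higher, was under the rule with it and at 8-fold. It also moved the median log2 ratio of the neuronal lists to -1.01 and of the muscle lists to 1.04, against -1.29 and 1.72, and 96 of 176 named ratios moved by more than counting error, since a larger pseudocount shrinks ratios of low genes. The muscle median was 2.16 over genes measured in the 2 libraries, a smaller set. No paired analysis was possible because each group had 1 library, and no replicate could be left out. Genes under about 5 CPM in both libraries could not pass the rule at this depth.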
